A study of Drosophila melanogaster with 8 samples.

Results

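The clock genes timeless (tim), period (per) and cryptochrome (cry) were examined in Drosophila melanogaster S2 cells that carry CLKGR, in which the clock activator CLK is joined to the ligand-binding region of the glucocorticoid receptor. All probe sets whose platform annotation gives tim, per or cry as their single gene symbol were taken, 9 of the 32962 probe sets of the study: 5 of 14010 on the older of the array types (3 for tim, 1 each for per and cry) and 4 of 18952 on the newer (2 for tim, 1 each for per and cry). The labels place 8 arrays in groups that all received cycloheximide (CHX), a blocker of translation. On the older type 2 arrays carry the label EtOH and 2 the label DEX, for dexamethasone, the ligand of the fusion; on the newer type 2 carry the label V, which is not spelled out, and 2 the label DEX. V served as the control of its own table. The labels used here give no dose and no duration. The source text names a stable transfection for 1 EtOH array only, although every title names CLKGR, and for 1 newer DEX array the source text and the title give different replicate numbers; the title was followed.

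In the fly clock, CLK and its partner CYC bind E-box sequences and switch on per and tim. The PER and TIM proteins pair, enter the nucleus and repress CLK-CYC, which closes the loop. CRY is a blue-light receptor that binds TIM when lit and leads to its destruction, so that light resets the clock. S2 cells are an embryonic line with traits of haemocytes and are widely used as hosts for transfected clock genes. A response that persists under CHX needs no newly made protein, which is the question the DEX comparison addresses.

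Values are the log2 of the deposited intensity. No source used here gives the base by which the deposited values left the log scale of the authors' software, and if it was e every log2 difference is to be multiplied by 0.693. On older arrays the lowest value was 0.72 to 0.73 and the median 4.76 to 4.85. On newer arrays these were 2.64 to 2.65 and 4.44 to 4.49. A probe set was tested where its mean log2 value over the 4 arrays of its type was at least 4, and 3 of 5 member probe sets on the older type and 3 of 4 on the newer reached this. Of the haemocyte markers read, 8 of 9 lay above the array median on all 4 older arrays and 9 of 9 on all newer ones. Neuron markers did so in 2 of 4 and 1 of 4, clock neuron and photoreceptor markers in 1 of 3 on each type, muscle markers in 0 of 1 on each, and germline markers in 1 of 3 on each. No marker passed the test in either table. In RNA from whole cultures, fewer cells with a transcript and less of it per cell cannot be told apart.

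tim was higher with DEX on the older array type and lower on the arrays labelled DEX on the newer type, whereas per and cry differed by at most 0.03 on either, cry and older per being read too low to test. On the older type 1 of the 3 tim probe sets passed, with a rise of 1.96 on the log2 scale. Another rose by 2.62 without overlap but did not pass, and the third was level, at values below the array medians. Both tim probe sets of the newer type were about 2.5 lower on the arrays labelled DEX and did not pass. Both reached the minimum for testing only through the V arrays, since their DEX-labelled arrays lay under 4. In the direct test of the difference between the tables, the pairs that passed all held newer probe set 1634188_a_at. Because tim and other clock genes went opposite ways in the tables, arrays of the newer type are named here by their labels only.

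**Figure D1:**
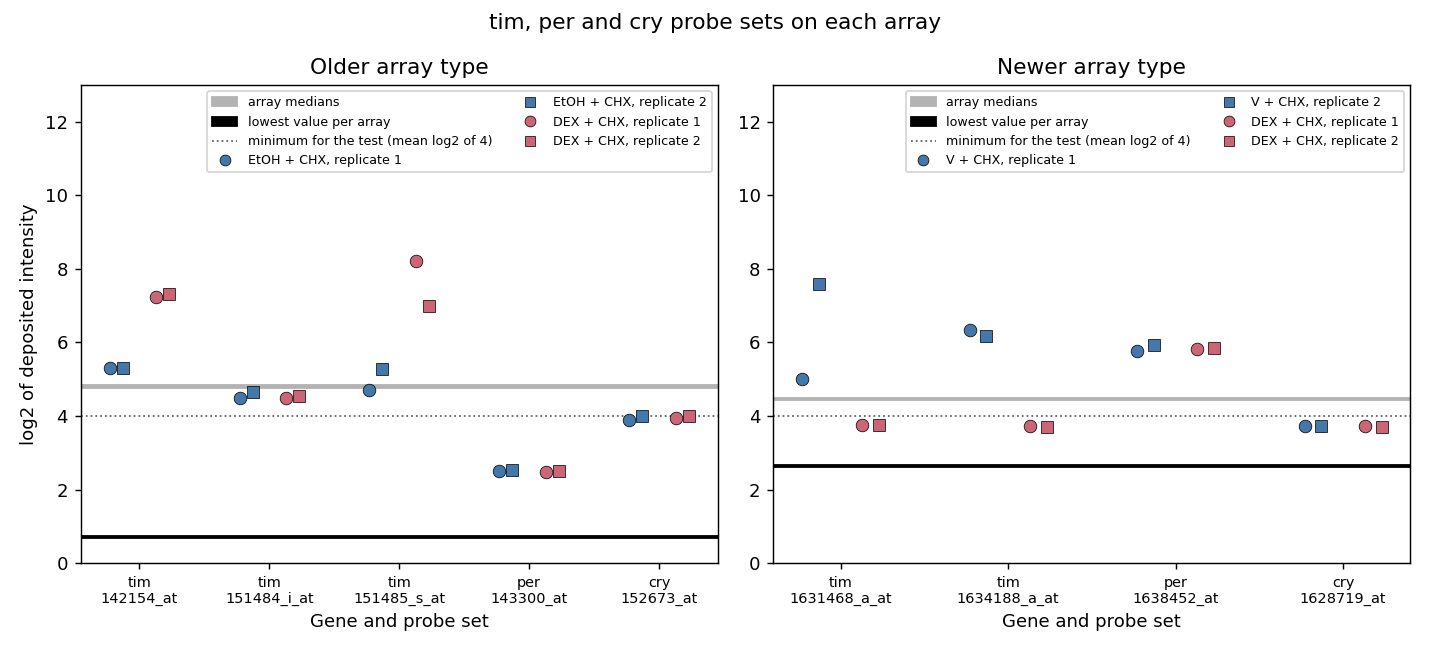
Log2 of the deposited intensity (vertical axis) of each tim, per and cry probe set on each of the 8 arrays, with the older type at left and the newer at right; points are single arrays, the grey band spans the array medians, the black line the lowest value per array, and the dotted line the minimum of 4. Older tim probe set 142154_at goes from 5.32 and 5.31 with EtOH to 7.22 and 7.33 with DEX, and newer 1634188_a_at from 6.33 and 6.17 with V to 3.72 and 3.72 with DEX, while per and cry stay level.

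The tim probe set 142154_at of the older type stood at log2 5.32 and 5.31 on the EtOH arrays and at 7.22 and 7.33 on the DEX arrays. These are deposited intensities of 39.9 and 39.8 against 149 and 161. The DEX arrays lay 1.91 above the higher EtOH array, so the groups did not overlap. The means were 5.32 ± 0.0030 (SD, n = 2) and 7.28 ± 0.073, a difference of 1.96 ± 0.13 (SE, 95% interval 1.64 to 2.28), or 3.89-fold as deposited and 2.56-fold if the base was e, with a limma adjusted p of 0.0063. This was the 9th smallest p and the 19th largest rise of the 10250 probe sets tested. Of the 1367 other probe sets whose mean lay within 0.5 of its own, 99.5% ranged less or as little over the 4 arrays. The probe set lay 4.585 to 4.602 above the lowest value with EtOH and 6.51 to 6.60 with DEX. It passed 60.7% to 61.9% of the probe sets of the EtOH arrays and 80.4% to 81.9% of those of the DEX arrays. limma called 0.263% of all probe sets tested on this type in either direction, and 0.215% as higher.

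The call rested on the scaling, the treatment of low values and the number of arrays, though the size did not. With arrays median-centred the adjusted p was 0.0788 (difference 1.98) and with quantile normalisation repeated 0.0872 (difference 1.94). With every log2 value under 4 set to 4 it was 0.332 (difference 1.96). Without EtOH replicate 1 or 2 it was 0.234 and 0.150, at differences of 1.96 each. It passed without DEX replicate 1 or 2, at differences of 2.01 and 1.91, in fits that took the variance as known and are not comparable.

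The second tim probe set of that type, 151485_s_at, stood at 4.71 and 5.27 with EtOH and at 8.23 and 6.997 with DEX. Here too both DEX arrays lay above both EtOH arrays, with a gap of 1.73, and the DEX arrays lay 1.23 apart. Its suffix marks a probe set that may read transcripts of more than 1 gene, so it is an uncertain reading of tim. The means were 4.99 ± 0.39 (SD, n = 2) and 7.61 ± 0.87, and the difference of 2.62 ± 0.41 (SE) did not pass (adjusted p = 0.143). It passed without DEX replicate 1 or 2, at 2.00 and 3.23, again with the variance taken as known. It was the 11th largest rise on this type, 6.14-fold as deposited or 3.52-fold were the base e. Groups that did not overlap, with a DEX mean at least 1 higher, were found in 0.537% of the probe sets tested, and tim had 2 such probe sets of 3.

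The third tim probe set, 151484_i_at, stood at 4.48 and 4.66 with EtOH and at 4.49 and 4.55 with DEX. The groups overlapped, and all 4 values lay below the array medians, at 42.0% to 44.8% of the probe sets. The difference was -0.04 ± 0.09 (SE, adjusted p = 1.00), with a 95% interval of -0.26 to 0.17, which does not reach the rise of either other tim probe set. Its 4 arrays ranged over 0.18, and 74.9% of the 3988 probe sets at like level ranged less or as little. Its suffix differs from those of the other tim probe sets of this type, and what it stands for was not checked. The tim probe sets of this type therefore did not move together, and which tim transcripts each reads is not given in the tables used here.

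**Figure D2:**
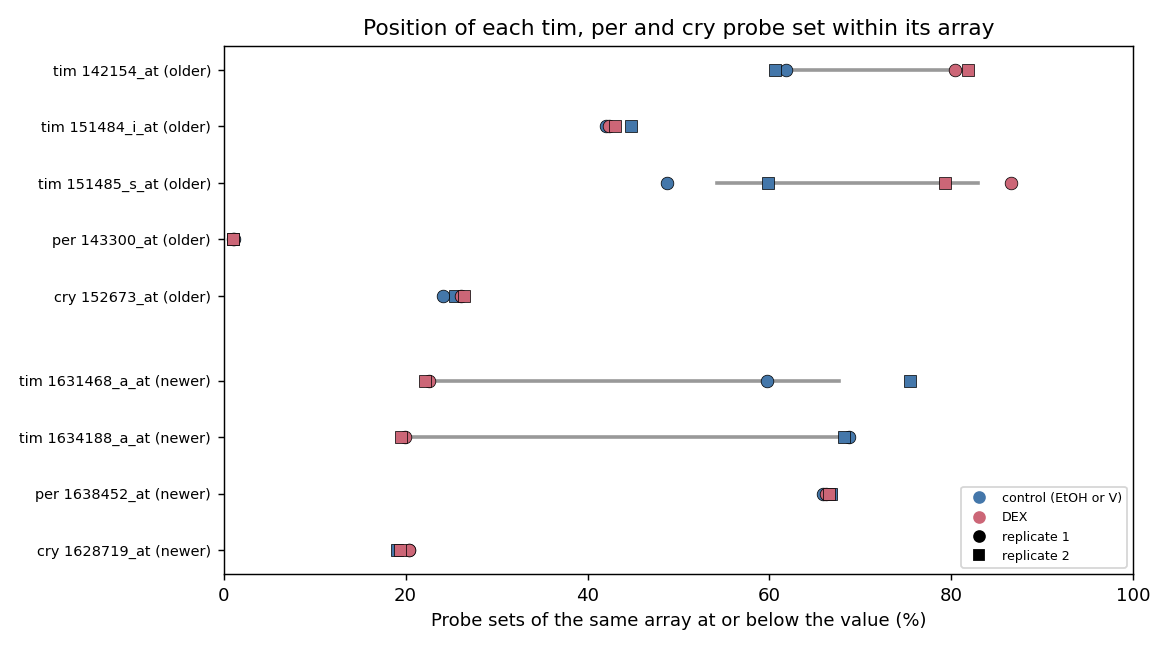
Percent of the probe sets of the same array that lie at or below each value (horizontal axis), per tim, per and cry probe set; blue points are EtOH or V arrays, red points DEX arrays, circles replicate 1 and squares replicate 2, and grey lines join the group means. Newer tim probe set 1634188_a_at moves from 68.2% to 68.7% with V down to 19.4% to 19.9% with DEX, low in its array, and older per stays at about 1%.

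On the newer type the tim probe set 1634188_a_at stood at 6.33 and 6.17 on arrays labelled V and at 3.72 and 3.72 on arrays labelled DEX. As deposited, these are 80.7 and 72.1 against 13.2 and 13.1. The groups lay 2.45 apart, with tim low on both DEX-labelled arrays. The means were 6.25 ± 0.12 (SD, n = 2) and 3.72 ± 0.0024, a difference of -2.54 ± 0.08 (SE, 95% interval -2.78 to -2.29, adjusted p = 0.318). The unadjusted p was 3.9e-05, and the difference did not pass the adjustment over 12436 probe sets. The mean over the 4 arrays reached the minimum of 4 only through the V arrays, so a probe set at this DEX level had to differ to be tested at all. With no filter on low values the adjusted p was 0.413.

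The size of this difference is not resolved, since the DEX-labelled arrays were at the low end of the scale. They lay 1.07 above the lowest value of their arrays, against 3.53 to 3.68 for the V arrays, and above 19.4% to 19.9% of the probe sets, against 68.2% to 68.7%. With every log2 value under 4 set to 4, the difference was -2.25 (adjusted p = 0.933). The SD of the DEX-labelled arrays (0.0024) was taken at that low end, so the SE and interval above may be too narrow.

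The other newer tim probe set, 1631468_a_at, stood at 5.01 and 7.58 with V and at 3.76 and 3.76 with DEX. The V arrays disagreed by 2.56, more than any other pair of like arrays among the tim, per and cry probe sets, but both lay above the DEX-labelled arrays, with a gap of 1.25. The means were 6.29 ± 1.81 (SD, n = 2) and 3.76 ± 0.0012, and the difference of -2.53 ± 1.01 (SE) had an interval of -5.64 to 0.58 and an adjusted p of 0.865. Without V replicate 1 or 2 the difference was -3.81 or -1.25, so its size followed a single V array. The DEX-labelled arrays were again 1.12 above the lowest value. Groups that did not overlap, with a DEX mean at least 1 lower, made up 0.491% of the probe sets tested on this type, and both tim probe sets were among them, which is given as a description because both were tested only through their V arrays. limma called 0 of 12436 probe sets (0%) on this type, where 439 had an unadjusted p under 0.05.

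**Figure D3:**
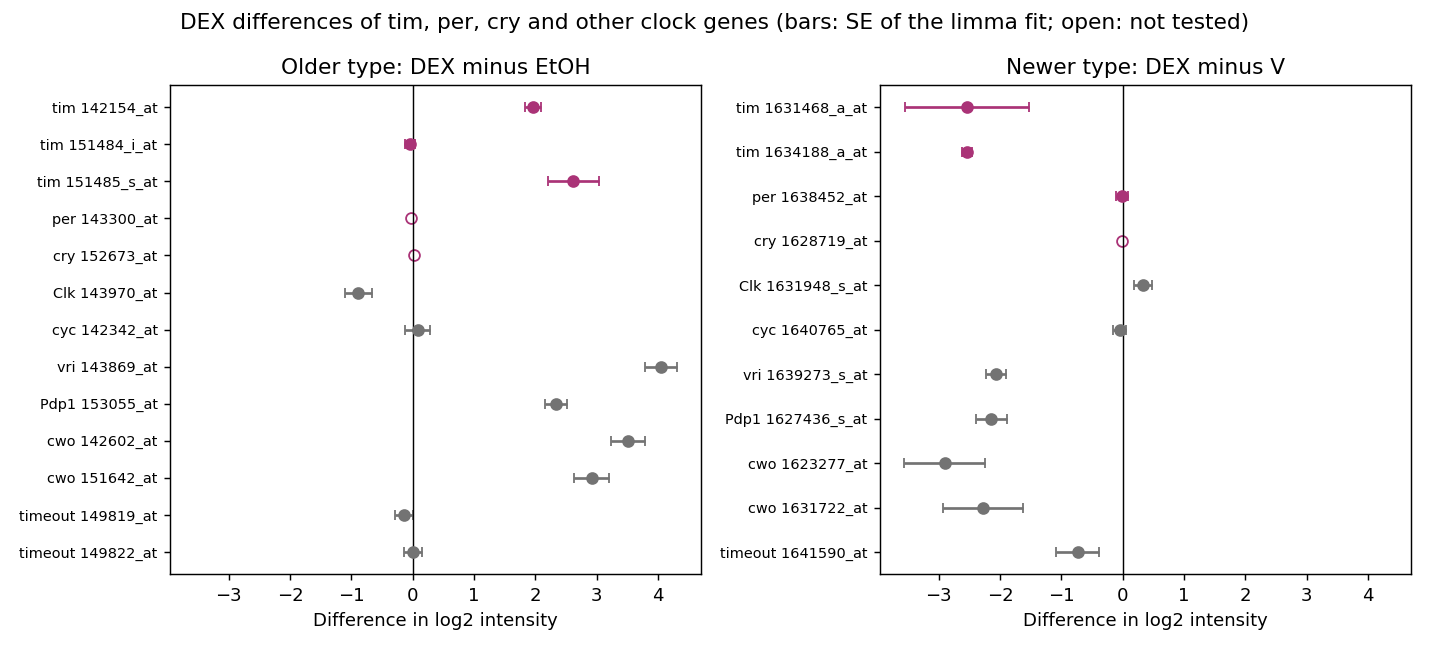
Difference in log2 intensity, DEX minus EtOH on the older type (left) and DEX minus V on the newer (right), for each tim, per and cry probe set (purple), and for the other clock loop genes and timeout (grey); bars are the SE of the limma fit and open points were not tested. tim, vri, Pdp1 and cwo lie to the right on the older type, except tim 151484_i_at at -0.04, and to the left on the newer, while per, cry and cyc lie near 0 on both.

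Whether the DEX difference itself differed between the types was then tested (newer minus older) for all 6 pairs of a newer and an older tim probe set, in a limma fit of 6755 genes plus the added pairs. For 142154_at with 1634188_a_at it was -4.50 ± 0.17 (SE, adjusted p = 1.4e-04), the older difference being 1.96 and the newer -2.54. For 151485_s_at with 1634188_a_at it was -5.16 ± 0.53 (adjusted p = 0.0097). For the level 151484_i_at with 1634188_a_at it was -2.49 ± 0.13 (adjusted p = 3.6e-04), the older difference being -0.04 and the newer -2.54. This last pair reflects the newer difference almost alone. In the fit of its own type that difference did not pass (adjusted p = 0.318). These 3 pairs share 1 newer probe set and are not separate observations. That probe set entered the fit only through its V arrays. Its DEX-labelled arrays lay at the low end of the scale, so the SE and adjusted p of these pairs may be too small. In the fit with no filter on low values, where no probe set is admitted by its level, the adjusted p was 2.3e-04, 0.0230 and 0.0011 in the same order. With a minimum of 5 it was not tested. The pairs with 1631468_a_at gave -4.49 ± 0.98, -5.15 ± 1.10 and -2.49 ± 0.97, with adjusted p of 0.278, 0.262 and 0.897 in the order 142154_at, 151485_s_at and 151484_i_at, and did not pass. Among all 6760 genes and pairs the fit called 0.444%.

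With 1 array left out at a time, 142154_at and 151484_i_at against 1634188_a_at passed in all 8 fits each. The pair of 151485_s_at with 1634188_a_at passed in 6 of 8, and missed without either EtOH array (adjusted p = 0.137 and 0.0883). When the variance of all 8 arrays was used for the effects within types, 1634188_a_at passed on the newer type beside 142154_at or 151484_i_at. The adjusted p was 3.3e-04 and 1.4e-04, and beside 151485_s_at it missed (0.0828). That variance is shared with the older probe set of the pair, and 1634188_a_at entered only through its V arrays. In the fit of its own type it did not pass (adjusted p = 0.318).

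**Figure D4:**
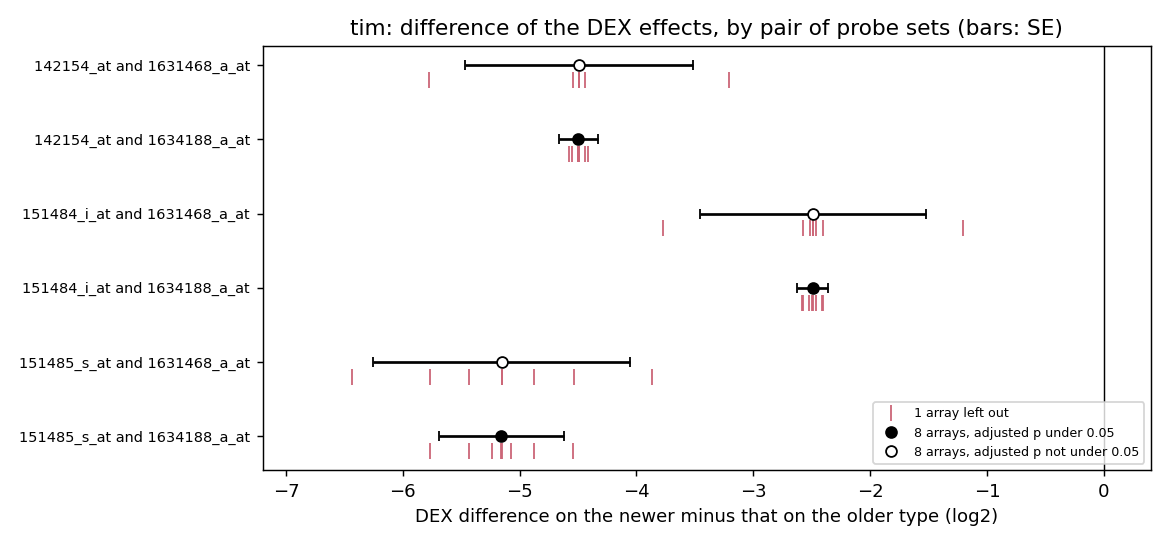
DEX difference of the newer type less that of the older in log2 units (horizontal axis) for each of the 6 pairs of tim probe sets; points are the fit of 8 arrays, filled where the adjusted p was under 0.05, bars are its SE, and red ticks are the fits with 1 array left out. All ticks lie left of 0, and pairs with 1631468_a_at spread the most, for example from -3.77 to -1.21 beside 151484_i_at.

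per, the partner of tim in the repressor complex and also a CLK target in flies, lay at 2.50 and 2.55 with EtOH and at 2.48 and 2.50 with DEX on older probe set 143300_at. It was above only 0.981% to 1.09% of the probe sets of an array and 1.77 to 1.82 above the lowest value, so it was not tested. The groups lay 3.9e-04 apart, which is a difference of -0.03 with no weight beside the 13.6% of tested probe sets whose DEX arrays were lower without overlap. On the newer type, per probe set 1638452_at stood at 5.77 and 5.92 with V and at 5.82 and 5.85 with DEX, above 65.9% to 66.7% of the probe sets and 3.12 to 3.28 above the lowest value. The groups overlapped. The difference was -0.01 ± 0.10 (SE, adjusted p = 0.976), with an interval of -0.31 to 0.29 that leaves out a fall as large as that of tim on 1634188_a_at. The 4 arrays ranged over 0.15, and 17.4% of the 1109 probe sets of like level ranged less or as little.

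cry, the light receptor that acts on TIM, stood at 3.89 and 4.01 with EtOH and at 3.96 and 3.99 with DEX on older probe set 152673_at. On newer probe set 1628719_at it stood at 3.74 and 3.72 with V and at 3.73 and 3.71 with DEX. The groups overlapped on both types, the differences were 0.03 and -0.01, and neither probe set reached the minimum. The older one lay above 24.1% to 26.4% of the probe sets of an array and the newer above 19.1% to 20.4%, the latter 1.07 to 1.09 above the lowest value. Of the 7833 probe sets at like level on the newer type 37.2% ranged less or as little as its 0.022. So near the low end of the scale, a change in cry or in older per was not resolved.

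The other genes of the clock loop that passed on the older type did so in the direction of tim. These were 3 of 5: vri, a bZIP repressor of Clk (difference 4.04), Pdp1, its bZIP counterpart that activates Clk (2.34), and cwo, a bHLH repressor (3.51 and 2.91). The limma adjusted p was 0.0056, 0.010 and, for cwo, 0.011 and 0.030. Over all probe sets tested on that type 0.215% were called higher. With arrays median-centred 0 probe sets of that type were called, these included. The list was drawn up with earlier results of these data known. On newer arrays vri differed by -2.07, Pdp1 by -2.14, and cwo by -2.90 ± 0.66 and -2.28 ± 0.65 (SE), and 0 of 5 passed. The V arrays of cwo disagreed, at 13.39 and 14.71 on 1 probe set and 6.21 and 7.64 on the other. Clk itself, which encodes the activator, differed the other way, by -0.89 ± 0.22 (SE, adjusted p = 0.420) on the older type and 0.33 ± 0.15 (adjusted p = 0.865) on the newer. The groups did not overlap on either type (newer 7.94 and 8.09 with V, 8.23 and 8.46 with DEX). On the older type 13.6% of the probe sets tested were lower with DEX without overlap. The share higher without overlap on the newer type was not counted. Neither difference passed. cyc did not pass either (0.08 and -0.05, groups overlapping). The list's median difference was 2.34 with the older and -2.07 with the newer arrays, beside -0.01 and -0.0045 over all probe sets tested. Of these 5 genes, 3 passed in the test between array types, all lower on the newer, where 0.444% of all genes and pairs were called.

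No tested gene passed on either type from the lists drawn up for proteins that modify, degrade or translate PER, TIM and CRY. The list drawn up around kinases, phosphatases and ligases of PER and TIM held 16 genes, not all of these kinds. On each type 11 of them were read and tested, and 0 were called. Differences by brightest probe set were -0.33 to 0.33 with older and -0.25 to 0.64 with newer arrays, with medians of 0.20 and 0.06. The highest of the newer differences was that of Usp8 (0.64). The list includes dco, the casein kinase that phosphorylates PER (0.20 and -0.09), and slmb, an F-box protein that marks it for decay (-0.04 and 0.06). The light input list of 12 genes, with CSN4, CSN5, Cul4 and pic, had 0 of 6 and 0 of 9 tested genes called, at medians of -0.03 and 0.0017. jet, the F-box protein that marks TIM in light, lay under the minimum on both types. RNA regulators of per and tim, such as Atx2 and tyf, which promote PER translation, had 0 of 4 and 0 of 5 called. Their median difference was 0.10 with older and -0.33 with newer arrays, and by brightest probe set the newer values ran from -0.63 (tyf probe set 1636648_s_at) to 0.07. The tyf probe sets disagreed, the others standing at -0.11 and 0.59. Usp8 and these tyf probe sets were named after their values were seen. The median of newer minus older was -0.47 over the 4 genes tested. In the test between array types 0 of 11, 0 of 6 and 0 of 4 genes of these lists passed.

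timeout, the relative of tim found across animals, did not share its pattern on the older type. Its probe sets 149819_at and 149822_at had differences of -0.14 and 0.0014 with an adjusted p of 1.00 each, and 149817_at and 149818_at lay under the minimum. Newer probe set 1641590_at stood at 7.32 and 6.65 with V and at 6.50 and 6.005 with DEX. Both V arrays were higher than both DEX-labelled arrays, an order seen in 23.9% of the probe sets tested on that type, and the difference of -0.73 ± 0.34 (SE) did not pass (adjusted p = 0.865).

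The probe sets most like each tim probe set were found by the Euclidean distance of log2 values centred over the 4 arrays of a type, which is a description over 4 arrays. Nearest to 142154_at were E(spl)mbeta-HLH (distance 0.295, difference 1.81), Fmo-2 (0.328, 1.67) and Gadd45 (0.346, 2.24). Nearest to 151485_s_at were CG3764 (0.633, difference 2.32), CG6231 (0.644, 2.17) and E(spl)m6-BFM (0.800, 2.19), so these sets of neighbours held no gene in common. The level 151484_i_at was nearest to Nepl8, CarT and neur, all within 0.0064 and with differences of -0.05 to -0.04.

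On the newer type, 1634188_a_at was nearest to E(spl)m3-HLH (0.361, difference -2.23), Tret1-1 (0.391, -2.42) and CG3348 (0.399, -2.17). The variable 1631468_a_at was nearest to CG15096 (0.928, -2.00), cwo probe set 1631722_at (1.01, -2.28) and ps (1.02, -1.90). On these, as on 1631468_a_at, V replicate 2 was the higher of the V arrays. CG15096 stood at 5.42 and 7.02 with V, cwo at 6.21 and 7.64, and ps at 7.21 and 8.64. They were picked for closeness to 1631468_a_at over the same arrays, so this order follows from the choice and is no separate observation. On 1634188_a_at V replicate 2 was instead the lower, by 0.16. The part that V replicate 2 has in the spread of 1631468_a_at was not tested.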

How the data were processed

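Biotin-labelled total RNA was read on Affymetrix arrays of 2 types. The authors deposited 1 intensity per probe set and array, made with GCRMA per the submitters' processing notes; version and base are not given in the sources used here. The log2 of each intensity was taken with no pseudocount. Control probe sets (44 and 183) were left out. limma 3.58.1 under R 4.3.3 was fitted to each type by itself (eBayes with intensity trend, two-sided, Benjamini-Hochberg over all probe sets tested, threshold 0.05), with 2 residual degrees of freedom. The difference of effects was fitted on 8 arrays with the brightest probe set of each gene, a mean log2 of at least 4 on each type, and all other member pairs added. Every adjusted p is limma's.

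The platform annotation, updated by RefSeq, named the probe sets. List genes are named where a probe set passed, or where groups did not overlap and differed by at least 1; lists add roles of further genes. Members and lists were chosen with earlier results of these data known. No columns were identical. Whether like arrays came from separate cultures is not in the labels, so the p-values cover only the spread among these arrays, which may be technical. With 2 arrays per group the precision is limited. Each fit was tried on simulated data. Changes were planted only in probe sets with higher means than those of newer tim, so readings near the low end were not covered. Scaling, filters, floor, log base, trend, replicate block and each array left out were tried as alternatives.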

Additional observations from a re-analysis of the deposited data

Results flagged for a closer look

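Of the results on tim, per and cry, 3 stood out because the DEX effect differed between the array types by the direct test. Taken as newer minus older, it came to -4.50 for tim probe sets 142154_at and 1634188_a_at, -5.16 for 151485_s_at and 1634188_a_at, and -2.49 for 151484_i_at and 1634188_a_at. In the last pair the older difference was -0.04, so the value reflects the newer difference almost alone. All 3 rest on the same newer probe set, whose DEX-labelled arrays lay at 3.72, near the low end of the scale. The sizes of the 3 are therefore not resolved, and their adjusted p may be too small. That probe set reached the minimum of 4 only through the V arrays, so the 3 are not separate support. With no filter on low values the adjusted p was 2.3e-04, 0.0230 and 0.0011.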

How the results depend on the processing

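On the older type 27 probe sets were called, against 0 with arrays median-centred, 4 with quantile normalisation repeated, 73 with no filter, 10 with a minimum of 5, 1 with log2 values under 4 set to 4, and 12 with no intensity trend; leaving out an array gave 0 to 455, where fits without a DEX array took the variance as known and are not comparable. Probe set 142154_at of tim missed the threshold with median centring (1.98, adjusted p = 0.0788), repeated quantile normalisation (1.94, 0.0872), values set to 4 (1.96, 0.332) and the variance of all 8 arrays beside 1631468_a_at (1.96, 0.668). Probe set 151485_s_at passed with no filter (2.62, 0.0110). On the newer type 0 probe sets were called, and 3 with values set to 4. With the variance of all 8 arrays, which is shared with the older probe set of the pair, 1634188_a_at passed beside 142154_at and 151484_i_at (-2.54 each). It did not pass beside 151485_s_at. For the difference between types 30 were called, 13 with values set to 4, 14 with the replicate block, 30 with the minimum taken over all 8 arrays (added after seeing the data), and 10 to 63 with an array left out. The pair of 151485_s_at and 1634188_a_at missed with values set to 4 (-4.87, 0.194) and with the replicate block (-5.16, 0.114). The block changed no other tim call. The numbers are not known to pair the arrays: deviations of like-numbered arrays correlated at 0.264 for older and -0.0231 for newer arrays. The causes of these changes were not tested.

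Leaving out an array gave 1.91 to 2.01 for 142154_at (missed without either EtOH array), -0.134 to 0.0441 for 151484_i_at (above 0 without EtOH replicate 2), 2.00 to 3.23 for 151485_s_at (passed without either DEX array), -0.0532 to -0.0105 for older per, -0.0365 to 0.0903 for older cry, -3.81 to -1.25 for 1631468_a_at, -2.62 to -2.45 for 1634188_a_at, -0.0867 to 0.0626 for newer per and -0.0164 to -0.0027 for newer cry. Pairs with 1631468_a_at ranged from -5.77 to -3.21 (142154_at), -3.77 to -1.21 (151484_i_at) and -6.43 to -3.87 (151485_s_at). A fit without 1 of the V arrays drops the spread between them from the error, so for these pairs only sizes are given. Pairs with 1634188_a_at ranged from -4.58 to -4.41, -2.58 to -2.40 and -5.77 to -4.54. Near 0 the sign or size of per and cry moved with scaling: newer per was 0.0084 when centred and 0.0106 when quantile-normalised, newer cry 0.0109 and 0.0025, and older per -0.0075 when centred. With values set to 4, older per and newer cry became 0.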
